A study of Rattus norvegicus with 70 samples.

Results

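A set of 10 imprinted genes outside the cluster of H19 and Igf2 was followed through rat liver: Dlk1, Calcr, Rasgrf1, Mest, Grb10, Plagl1, Snrpn, Nnat, Gnas and Igf2r. They were chosen by gene symbol, and every table row that carried one of those symbols was taken. This gave 15 of the 17174 rows, at 11 distinct regions and 10 loci, for 9 of the 10 genes. Mest was not analysed here. The 2 Rasgrf1 regions overlapped almost completely and are described once unless their values differed. No region of these genes passed the test between treatments or times after adjustment over all regions. Their levels, their spread and the few unadjusted differences are given here with the value in each library.

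Methylated DNA was captured from liver with a methyl-CpG-binding protein (MethylMiner) and sequenced on a SOLiD 4 instrument, so that a higher signal means that more methylated fragments were caught. The rats, outbred Crj:CD(SD)IGS, belonged to a model of liver cancer made in 2 stages, initiation and promotion. A water control received 0.5% methylcellulose and then plain water, and a promoted control received 0.5% methylcellulose and then phenobarbital at 500 ppm in its water. The other 5 conditions received an initiator and then the same phenobarbital: diethylnitrosamine (DEN, which alkylates DNA) at 3 mg/kg or at 30 mg/kg, acetaminophen at 1000 mg/kg, methapyrilene at a dose of 100 mg/kg, or thioacetamide at 45 mg/kg. The higher dose of DEN was given for a shorter time than the other initiators, per the labels, because the rats lost weight. Livers of each condition were sampled at partial hepatectomy, 1 week into promotion, and at terminal euthanasia, 6 weeks into promotion, with 5 libraries in each of the 14 groups. All rats had the hepatectomy, controls included, so the livers of terminal euthanasia are livers after surgery, and all groups other than the water control carried phenobarbital. The labels give neither age nor sex.

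An imprinted gene is one whose maternal and paternal copies are marked differently by DNA methylation set in the germ line, so that often only 1 copy is transcribed. Because 1 parental copy can stay methylated in every tissue, a promoter of this kind can carry methylation that an ordinary active promoter lacks. Several of the genes act on fetal and liver growth, and loss of imprinting has been studied widely in liver tumours. Enrichment sequencing of bulk liver reads both parental copies and all cell types together, so a change per cell, a change in the mixture of cells and a change on 1 parental copy cannot be told apart here.

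The starts of the genes differ in how many CpG dinucleotides, the targets of methylation, they hold. The 250 bases just upstream of the start are printed for the 5 genes on which the results turn, from RefSeq on GRCr8, 5′ to 3′ on the strand of the gene, with CpG dinucleotides in capitals. They show how the genes differ at their starts, cover a small part of each measured region and were not placed on the coordinates of the files. They are Grb10 at chr14:90816388-90816637 (minus strand), Dlk1 at chr6:134192347-134192596 (plus), Calcr at chr4:32691076-32691325 (minus), Rasgrf1 at chr8:99324736-99324985 (plus) and Snrpn at chr1:120338920-120339169 (minus).
Grb10: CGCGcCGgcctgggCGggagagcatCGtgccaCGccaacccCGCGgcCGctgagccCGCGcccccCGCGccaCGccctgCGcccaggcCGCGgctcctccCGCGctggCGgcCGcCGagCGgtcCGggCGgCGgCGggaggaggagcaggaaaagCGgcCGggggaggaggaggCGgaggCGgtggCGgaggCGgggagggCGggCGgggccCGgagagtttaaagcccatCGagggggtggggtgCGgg
Dlk1: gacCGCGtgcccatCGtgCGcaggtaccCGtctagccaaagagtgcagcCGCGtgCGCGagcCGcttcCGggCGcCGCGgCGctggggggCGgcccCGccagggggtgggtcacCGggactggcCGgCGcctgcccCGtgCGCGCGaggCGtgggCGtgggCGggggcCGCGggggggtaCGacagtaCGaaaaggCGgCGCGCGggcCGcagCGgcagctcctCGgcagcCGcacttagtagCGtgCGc
Calcr: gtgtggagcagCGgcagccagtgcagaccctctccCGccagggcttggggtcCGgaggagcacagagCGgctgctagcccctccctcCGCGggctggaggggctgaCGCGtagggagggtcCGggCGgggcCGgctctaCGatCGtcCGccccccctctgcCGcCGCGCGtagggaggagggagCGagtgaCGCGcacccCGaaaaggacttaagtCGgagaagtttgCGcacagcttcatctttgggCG
Rasgrf1: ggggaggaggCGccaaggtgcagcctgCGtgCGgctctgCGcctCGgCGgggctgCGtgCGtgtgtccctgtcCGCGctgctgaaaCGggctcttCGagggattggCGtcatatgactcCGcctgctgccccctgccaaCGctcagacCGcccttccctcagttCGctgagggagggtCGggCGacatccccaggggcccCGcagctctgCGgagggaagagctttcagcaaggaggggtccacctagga
Snrpn: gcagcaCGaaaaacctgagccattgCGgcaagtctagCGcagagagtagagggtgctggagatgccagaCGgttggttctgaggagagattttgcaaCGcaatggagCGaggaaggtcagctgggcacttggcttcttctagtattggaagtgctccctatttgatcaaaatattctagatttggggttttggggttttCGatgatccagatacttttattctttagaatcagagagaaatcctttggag

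Dlk1 had 41 CpGs in this window, Grb10 38, Calcr 25, Rasgrf1 21 and Snrpn 7, against a median of 5 over 33469 windows of the table. The windows of Plagl1 and Igf2r held 23 each, and 3 windows listed for Gnas held 16, 11 and 32. The table gave windows for 8 of the 9 genes; Nnat was the gene without one. The letters TGCCGC, searched on both strands as the core of the sequence that the imprint-keeping zinc-finger protein Zfp57 binds, occurred in 4 of the 10 windows of these genes and in 8.91% of all windows of the same length, most of which hold fewer CpGs. Captured signal over a region depends on how many CpGs it holds as well as on their methylation, so levels of different genes are not degrees of methylation. Over all genes that could be joined, the 2885 with 20 or more CpGs in the window had a median signal of 52.1 and the 2504 with 5 or fewer had one of 60.

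Each deposited region ran from 4500 bp upstream of a transcript start into the first part of the transcript, and all had the same length. No source used here names the genome build of these coordinates, and they are printed as the files give them. Signal is the read number of a region scaled by the authors so that 1 read was worth about 1 unit. Over all 17174 regions the median of the mean signal was 53.5 and the 90th percentile was 188.0.

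Among signal receptors and their partners, Gnas, which encodes the stimulatory G protein alpha subunit and several other products of 1 complex locus, had 2 regions with high signal. The one at chr3_random:1604897-1610522 (transcripts NM_001024823 and NM_021845) had the highest mean of all the imprinted regions, 613 ± 153 (SD over 70 libraries), above 99.9% of all regions. The other, at chr3:165208899-165214524 (NM_001159653 and NM_001159656), had 374 ± 87.7. Igf2r at chr1:42248773-42254398, the receptor that takes up and clears the growth factor Igf2, had 222 ± 41.6. Grb10 at chr14:92910317-92915942, an adaptor that damps insulin and growth factor receptor signalling, had 210 ± 47.5. Calcr at chr4:28560171-28565796, the calcitonin receptor, had 136 ± 26.6. Rasgrf1 at chr8:94797967-94803592, an exchange factor that activates Ras, had 7.75 ± 9.87, near the bottom of the table.

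The ligand of the set, Dlk1 at chr6:134017516-134023141, a membrane protein of the Notch ligand type made in fetal liver, had a mean of 47.8 ± 16.5, close to the median region. A pair of genes act in the nucleus. Plagl1 at chr1:7878174-7883799, a zinc-finger transcription factor that restrains growth, had 268 ± 62.6. Snrpn at chr1:111591534-111597159, a protein of the splicing machinery whose start lies in a known imprinting centre, had 171 ± 45.4. Nnat at chr3:148264904-148270529, a small membrane protein of the endoplasmic reticulum, had 401 ± 91.4. The lowest of the other 8 regions, Calcr, was above 81.2% of all regions.

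The order of the means was Gnas (chr3_random), Nnat, Gnas (chr3), Plagl1, Igf2r, Grb10, Snrpn, Calcr, Dlk1, Rasgrf1. Some neighbours in it were clearly apart: Gnas (chr3_random) exceeded Nnat, Calcr exceeded Dlk1, and Dlk1 exceeded Rasgrf1 in all 70 libraries. Gnas (chr3) exceeded Plagl1 in 69. Grb10 exceeded Snrpn in 58 libraries, Snrpn exceeded Calcr in 57 and Plagl1 exceeded Igf2r in 56. Nnat and Gnas (chr3) changed places often, Nnat being higher in 48 libraries, and Igf2r was above Grb10 in only 41, so these 2 pairs of neighbours did not separate beyond their spread.

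**Figure D1:**
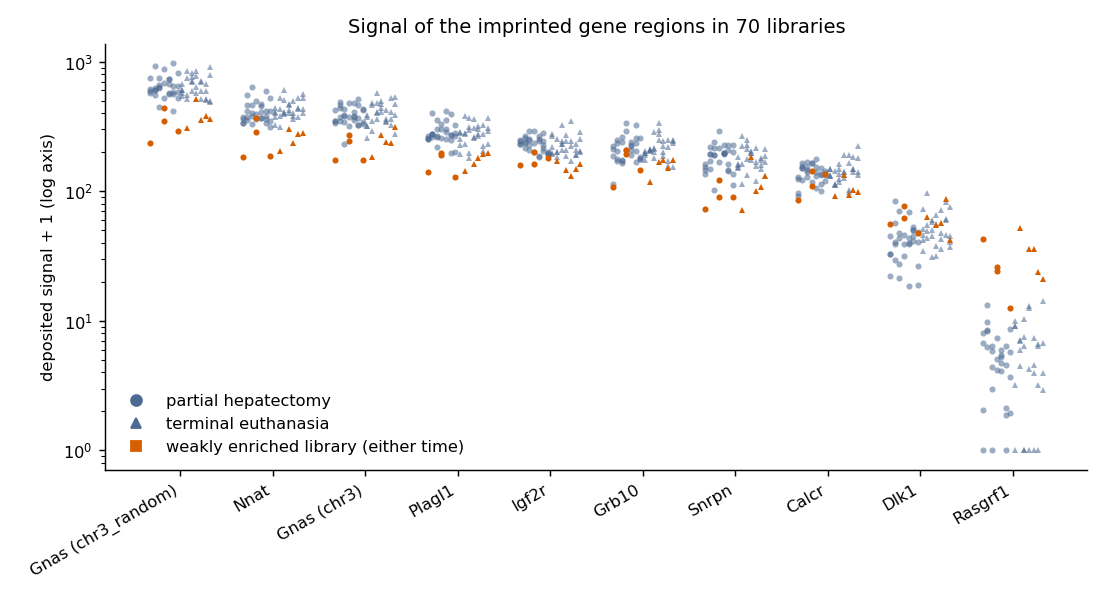
Deposited signal plus 1 (log axis) of the 10 imprinted loci in 70 libraries, ordered by mean; points within a locus run through the 14 groups, circles are partial hepatectomy, triangles terminal euthanasia, and orange marks the 9 weakly enriched libraries. Orange points lie at the lower edge for the loci with high signal and at the upper edge for Rasgrf1.

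Over the whole set of regions, 9 libraries stood apart because less than 1% of their regions were without a read, and they are called weakly enriched here. At partial hepatectomy they were water control 5, DEN 30 mg/kg 3 and 4, and acetaminophen 5. At terminal euthanasia they were promoted control 5, DEN 30 mg/kg 3, thioacetamide 4, methapyrilene 3 and acetaminophen 3. The scaling totals of the 70 libraries ran from 42.1 to 56.6 M, and 0.933 to 1.8 M reads of a library fell in regions, so that 1 read was worth a signal of 0.883 to 1.19 in one library or another. The scaling totals of the last block of library numbers, which holds replicate 5 of every initiated group, were in 10 of 10 cases equal to that of a library of an earlier block. Whether they are these libraries' own totals was not tested, so the scale of replicate 5 in every initiated group is uncertain, and values without it are given where they matter. The blocks were not spread evenly over the groups. Methapyrilene and acetaminophen had no library in block 1 (numbers 1 to 20), which held promoted controls 1 and 2. The promoted control had none in the last block. The weakly enriched libraries were all in block 3 except acetaminophen 5 at partial hepatectomy. Block and treatment therefore cannot be fully told apart in these contrasts.

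The imprinted regions moved with this property in both directions. Snrpn had a median of 98.9 in the 9 weakly enriched libraries and 181 in the other 61, a ratio of 0.55, whereas regions of similar mean signal had a median ratio of 0.70. Gnas (chr3_random) had a ratio of 0.57 against 0.60 for its similar regions, Gnas (chr3) 0.62 against 0.61 and Plagl1 0.66 against 0.64. Nnat had 0.68 against 0.60, Igf2r 0.70 against 0.66, Calcr 0.72 against 0.74 and Grb10 0.81 against 0.67. Dlk1 went the other way with 1.27, against 1.05 for its similar regions. Rasgrf1 had a median of 24.9 in the weakly enriched libraries and 4.41 in the others, a ratio of 5.65 against 2.95 for regions of similar mean. Regions of similar mean are, throughout, regions of none of the 10 genes whose mean signal was within 10% of that of the imprinted region. Other imprinted genes were not left out of them. The mean was taken over all libraries, except for the spread without the weakly enriched libraries, where it was over the other 61.

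Rasgrf1 was close to empty outside those libraries. Its reads numbered 0 to 45 per library with a mean of 7.54, and 9 libraries had none, which allows up to 3 reads, or a signal of 2.72 to 3.29, on counting error alone. The filter for testing, a signal of 10 or more in at least 5 libraries, was met over both times through 13 libraries, the 9 weakly enriched ones among them. At partial hepatectomy alone it was met only through the weakly enriched libraries of that time and promoted control 2. That control is in the reference group of every initiated contrast, and leaving out any of these libraries left Rasgrf1 untested at that time. Rasgrf1 therefore passed because of the libraries in which it was high, and without them it was not tested at either time. All the other regions were at 10 or more in all 70 libraries.

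Treatments were compared within each time with limma on log2(signal + 1), over 15809 regions at partial hepatectomy and 16008 at terminal euthanasia, with Benjamini-Hochberg adjustment over all of them. The promoted control was set against the water control, and each initiated group against the promoted control, so all 6 contrasts of a time share that group. In all 12 contrasts 0 of 11 imprinted regions had an adjusted p under 0.05, and so had 0% of all tested regions. Of the 132 values behind this statement 7 (5.3%) had an unadjusted p under 0.05, near the 4.28% of all regions over the same 12 contrasts. Such values, called at the unadjusted level in what follows, are named as measurements that did not pass. Of the 7, 2 were the overlapping Rasgrf1 regions with methapyrilene at partial hepatectomy, where they met the filter only with a promoted control. The F test for any difference among the 7 groups called 0 of 11 at both times, against 0.00633% of all regions at partial hepatectomy and 0% at terminal euthanasia. At the unadjusted level the F test held 1 of 11 at partial hepatectomy (Calcr, limma adjusted p = 0.99) against 4.16% of all regions, and 0 of 11 at terminal euthanasia against 2.56%.

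**Figure D2:**
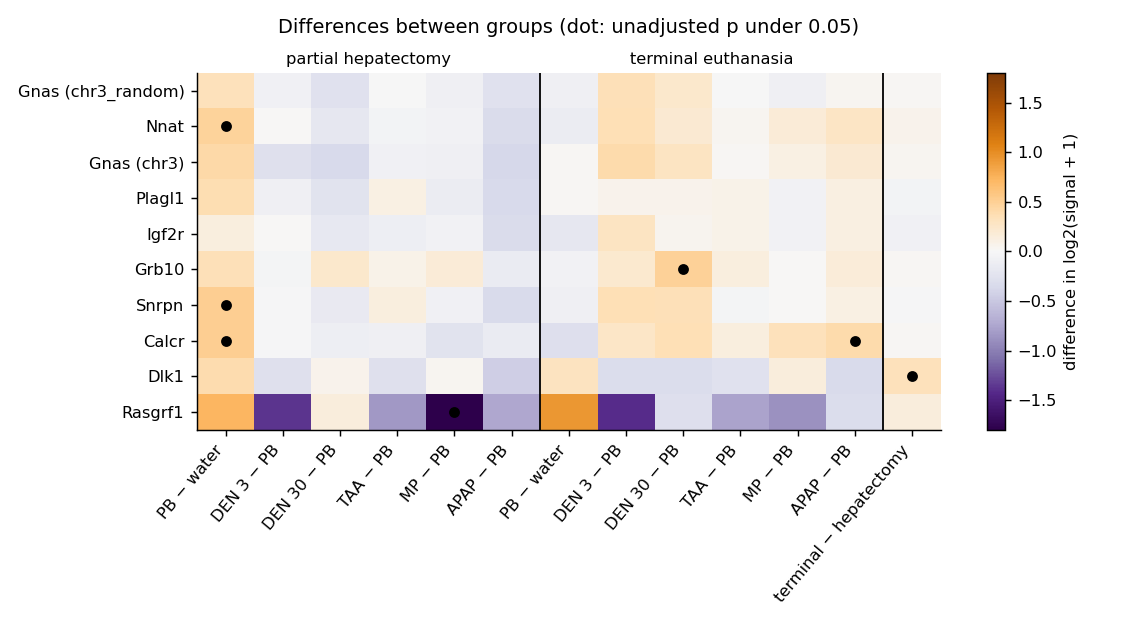
Difference in log2(signal + 1) of the 10 imprinted loci (rows, ordered by mean signal) in the 6 contrasts of each time and between the times (columns), orange for higher and purple for lower, with a dot where the unadjusted p was under 0.05. The largest colours belong to Rasgrf1, which held few reads, and no cell passed after adjustment.

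Phenobarbital against water at partial hepatectomy asks what 1 week of the promoter alone did. Calcr was the imprinted region with the smallest p: its signal was 123, 96.5, 127, 90.4 and 85.0 in the 5 water controls and 121, 150, 165, 151 and 157 in the 5 promoted controls. Promoted control 1 was the only promoted library within the range of the water controls. The difference was 0.52 (SE 0.17) on the log2 scale, with a limma adjusted p of 0.73. Snrpn read 153, 160, 144, 136 and 71.9 with water and 220, 193, 192, 147 and 170 with phenobarbital, a difference of 0.51 (SE 0.23, limma adjusted p = 0.74). The lowest water value was that of weakly enriched library 5, and the groups overlapped. Nnat read 333, 362, 335, 377 and 182 with water and 549, 467, 374, 416 and 355 with phenobarbital, a difference of 0.47 (SE 0.23, limma adjusted p = 0.74). Again library 5 of the water control was lowest and the groups overlapped.

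These 3 were 3 of 11 regions with an unadjusted p under 0.05, against 6.29% of all regions. All 11 differences were above 0, from 0.13 for Igf2r to 0.73 for Rasgrf1, with a median of 0.42 against 0.06 over all tested regions. The median difference of the regions of similar mean was also above 0, at 0.23 in the middle of the 11 medians, and 10 of 11 imprinted regions lay above the median of their own similar regions. The 11 were read in the same libraries and the Rasgrf1 regions overlap, so they are not separate observations. Without the weakly enriched libraries, 9 regions could be tested and all 9 were above 0, with a median of 0.21 against 0.06 for regions of similar mean; with quantile normalization as well, 7 were above 0 and 2 below. Snrpn then had 0.30 and Nnat 0.28, neither any longer at the unadjusted level. Calcr had 0.45 (limma adjusted p = 1.00), still at the unadjusted level and above 99.7% of the regions of similar mean. Leaving out water control 5 alone gave the same difference for each of the 3, since it was the only weakly enriched library of the 2 groups. Under quantile normalization of all libraries 10 of 11 differences were above 0 and the lowest was -0.10, the median was 0.19, and Nnat, at 0.19, was no longer at the unadjusted level.

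**Figure D3:**
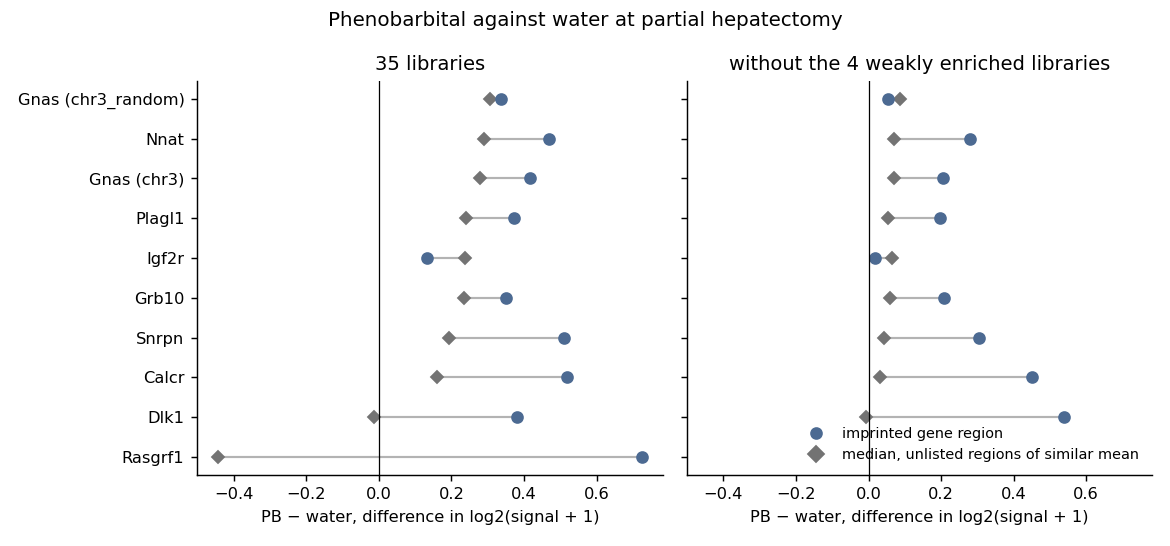
Difference in log2(signal + 1) between promoted and water controls at partial hepatectomy (x axis) for the imprinted loci (circles) and the median of unlisted regions of similar mean (diamonds), with all 35 libraries of that time on the left and without its 4 weakly enriched libraries on the right, where Rasgrf1 was not tested. The diamonds of the loci with high signal move toward 0 on the right, and Calcr goes from 0.52 to 0.45 and Dlk1 from 0.38 to 0.54.

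At terminal euthanasia the same contrast held 0 of 11 regions at the unadjusted level, against 3.16% of all regions. Calcr again had the smallest p, now in the opposite direction: 133, 148, 148, 130 and 130 in the water controls and 111, 143, 110, 113 and 91.5 in the promoted controls, a difference of -0.29 (SE 0.20, limma adjusted p = 1.00). The promoted controls reached up into the range of the water controls in 1 library. The change of the Calcr difference between the times was -0.80 (SE 0.25), with a limma adjusted p of 0.71. Over all 6 treatment-by-time interactions 0 of 11 imprinted regions passed, as did 0% of 16385 regions. At the unadjusted level phenobarbital by time held 1 of 11 (Calcr) against 6.63% of all regions, and DEN 3 mg/kg by time 1 (Gnas on chr3) against 5.13%. Methapyrilene by time held 1 (Calcr) against 1.81%, and acetaminophen by time 1 (Calcr) against 3.27%. DEN 30 mg/kg by time held 0 against 6.71% and thioacetamide by time 0 against 2.2%. The promoted control enters each of these, so the 3 Calcr values are not independent of one another.

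**Figure D4:**
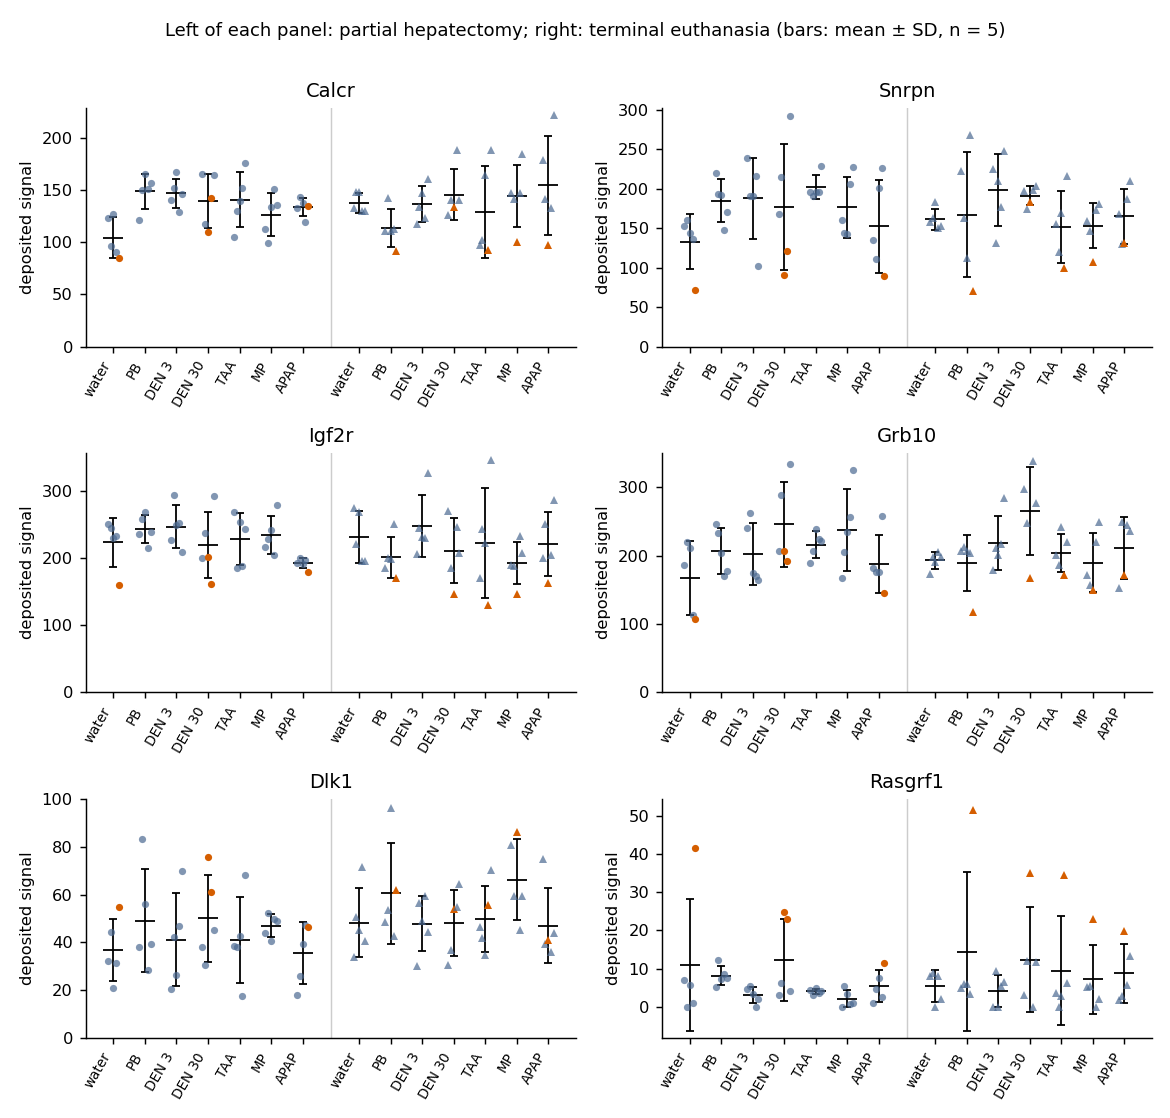
Deposited signal of 6 imprinted loci in the 14 groups, water and promoted (PB) controls first, with partial hepatectomy to the left and terminal euthanasia to the right of each panel; points are libraries, orange ones weakly enriched, and bars are mean ± SD (n = 5). Calcr is low in the water controls at partial hepatectomy and in the promoted controls at terminal euthanasia, and Grb10 is highest with DEN 30 mg/kg at both times.

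DEN was given at 2 doses. At 3 mg/kg and partial hepatectomy, 0 of 11 regions had an unadjusted p under 0.05, against 3.17% of all regions, and the smallest p belonged to Rasgrf1. Its 5 DEN values of 4.85, 5.43, 3.43, 0 and 2.00 stood against 5.27, 12.2, 7.42, 8.73 and 7.52 in the promoted controls, a difference of -1.37 (SE 0.74, limma adjusted p = 1.00) made of a handful of reads. With a pseudocount of 10 it was -0.48, and it reached the unadjusted level with no filter (-1.37) and under quantile normalization (-1.31), though not after adjustment (limma adjusted p = 1.00 in each). At terminal euthanasia 0 of 11 regions stood at the unadjusted level against 8.51% of all regions. Gnas (chr3) had the smallest p there, with 400, 361, 409, 483 and 575 after DEN against 460, 346, 290, 481 and 183 in the promoted controls. That difference of 0.40 (SE 0.24, limma adjusted p = 0.58) shrank to 0.19 without the weakly enriched libraries, the value of 183 being one of them, and to 0.06 under quantile normalization. Of the 11 regions 8 were above 0 at that time with the deposited scaling and 4 under quantile normalization, so no direction is given for the set.

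At 30 mg/kg and partial hepatectomy 0 of 11 regions stood at the unadjusted level, against 7.64% of all regions. Gnas (chr3) had the smallest p, with 317, 376, 269, 245 and 476 after DEN against 439, 346, 459, 492 and 376 in the promoted controls. This difference of -0.35 (SE 0.23, limma adjusted p = 0.71) was -0.12 without the weakly enriched libraries, which were the 2 lowest of the DEN group. It was -0.49 (at the unadjusted level, limma adjusted p = 0.25) without the last block of library numbers, which held the highest DEN value. At terminal euthanasia Grb10 was the 1 of 11 regions at the unadjusted level, against 3.43% of all regions. Its signal was 297, 248, 167, 339 and 277 after DEN and 207, 213, 207, 204 and 117 in the promoted controls. In 4 of the 5 DEN libraries it exceeded every promoted control, and the exception was the weakly enriched library 3. The difference was 0.48 (SE 0.20, limma adjusted p = 1.00).

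Grb10 rested on more than 1 library but not on all settings. Without the weakly enriched libraries it differed by 0.47 (limma adjusted p = 0.96), more than 98.9% of the regions of similar mean, and under quantile normalization by 0.33. Without promoted control 5 the difference was 0.32, and without DEN library 4 it was 0.38, in both cases no longer at the unadjusted level. With the groups of the contrast fitted alone it was not at that level either. At partial hepatectomy the group means were 246 ± 62.6 after DEN 30 mg/kg and 206 ± 33.4 in the promoted controls (SD, n = 5), a difference of 0.23 (SE 0.20). After DEN 3 mg/kg the Grb10 difference was -0.04 at partial hepatectomy and 0.22 at terminal euthanasia.

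Thioacetamide and methapyrilene damage liver cells by other routes. With thioacetamide at partial hepatectomy 0 of 11 regions stood at the unadjusted level, against 4.44% of all regions. Rasgrf1 had the smallest p at -0.83 (SE 0.74, limma adjusted p = 1.00; -0.36 with a pseudocount of 10), with 4.41, 3.07, 4.96, 3.68 and 4.21 against 5.27 to 12.2 in the promoted controls. With methapyrilene at partial hepatectomy the 2 overlapping Rasgrf1 regions, 1 locus, were 2 of 11 at the unadjusted level, against 3.67% of all regions. Their signal was 0, 5.41, 3.53, 0.887 and 1.11 after methapyrilene, a difference of -1.79 (SE 0.74, limma adjusted p = 1.00). The highest of them lay within the range of the promoted controls, and without library 1, which had no read, the difference was -1.45 and no longer at the unadjusted level. With a pseudocount of 10 in place of 1 it was -0.59, and no group mean of the locus exceeded 14.4. At terminal euthanasia thioacetamide held 0 of 11 against 2.06% of all regions, with Dlk1 at -0.26 (SE 0.25, limma adjusted p = 1.00). Methapyrilene held 0 of 11 against 2.57%, with Calcr at 0.33 (SE 0.20, limma adjusted p = 1.00).

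Acetaminophen at partial hepatectomy left 0 of 11 regions at the unadjusted level against 3.68% of all regions. Igf2r had the smallest p. Its signal was 193, 199, 191, 197 and 179 after acetaminophen and 235, 258, 268, 215 and 238 in the promoted controls, so every acetaminophen library was below every promoted control. The difference was -0.34 (SE 0.17, limma adjusted p = 0.99). Without the weakly enriched libraries it was -0.31 and reached the unadjusted level (limma adjusted p = 1.00), and under quantile normalization it was -0.18. All 11 regions were below 0, with a median of -0.35 against -0.03 over all tested regions and -0.14 for regions of similar mean. They were read in the same libraries and the Rasgrf1 regions overlap, so they are not separate observations. With library number blocks as a covariate all 11 stayed below 0, with a median of -0.30, and 1 was at the unadjusted level. The promoted controls that were high against water are the reference here too. Without the weakly enriched libraries all 9 tested regions were below 0 with a median of -0.15, against -0.03 for regions of similar mean.

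At terminal euthanasia acetaminophen held 1 of 11 regions at the unadjusted level, against 2.77% of all regions. It was Calcr, with 179, 141, 97.7, 133 and 222 against 111, 143, 110, 113 and 91.5 in the promoted controls, a difference of 0.40 (SE 0.20, limma adjusted p = 1.00). The groups overlapped, and the value was at the edge of the unadjusted level, which it lost when 1 of 23 libraries (of 35 tried in turn) was omitted. Without acetaminophen library 5, the highest value and one of uncertain scale, the difference was 0.25. Quantile normalization moved the median of all regions in this contrast from 0.11 to 0.01 on the log2 scale and Calcr to 0.28, no longer at the unadjusted level. With library number blocks as a covariate 0 of 11 regions were at the unadjusted level in this contrast.

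Groups that did not overlap at all were rare among the imprinted regions. At partial hepatectomy they were the 2 Rasgrf1 regions with thioacetamide, against 0.943% of all regions, and Igf2r with acetaminophen, against 0.576%. In reads the 2 groups met at 5 for Rasgrf1, with 3 to 5 after thioacetamide and 5 to 11 in the promoted controls. The full separation therefore held only after scaling. In the other contrasts of that time 0 of 11 regions were apart, against 0.98% for phenobarbital, 0.677% for DEN 3 mg/kg, 1.2% for DEN 30 mg/kg and 0.886% for methapyrilene. At terminal euthanasia 0 of 11 were apart in any contrast. All regions gave 0.6% for phenobarbital, 1.17% for DEN 3 mg/kg and 0.375% for DEN 30 mg/kg there, and 0.269% for thioacetamide, 0.494% for methapyrilene and 0.381% for acetaminophen.

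Between the times, 0 of 11 regions passed and 0.0671% of 16385 regions did. Dlk1 was the 1 of 11 at the unadjusted level, against 6.59% of all regions. Its signal ran from 17.5 to 83.3 with a median of 42.4 over the 35 libraries of partial hepatectomy, and from 30.2 to 96.3 with a median of 49.1 over the 35 of terminal euthanasia. The group mean was higher at terminal euthanasia in 6 of 7 conditions, the exception being DEN 30 mg/kg, and the ranges overlapped widely. The difference of 0.32 (SE 0.11, limma adjusted p = 0.43) was above that of 99.1% of regions of similar mean, whose median was 0.06. It was 0.38 without the weakly enriched libraries (adjusted p = 0.19) and 0.26 under quantile normalization (adjusted p = 0.60). The other regions lay between -0.07 for Igf2r and 0.15 for Rasgrf1.

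The authors' deposited table gives its own p for each group against the promoted control. At partial hepatectomy the authors' deposited table has a p under 0.05 for Calcr, Snrpn and Nnat in the water control and for Igf2r with acetaminophen. For Rasgrf1 the authors' deposited table has one with DEN 3 mg/kg, thioacetamide and methapyrilene. In the authors' deposited table no imprinted region is under 0.05 at terminal euthanasia, Grb10 included. These values are not adjusted, and between 2.11% and 5.23% of the rows with a p were under 0.05 in a column.

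The spread between libraries of a group was compared with that of regions of similar mean. On the log2 scale Snrpn had a pooled SD of 0.42 against a median of 0.32 among 879 regions of similar mean, more than 97.0% of them. Without the weakly enriched libraries it had 0.32 against 0.25, still above 95.5% of its similar regions. Dlk1 had 0.49 against 0.39 and lay above 91.8% of its similar regions with and without those libraries. Igf2r at 0.27 and Calcr at 0.27 were among the steadier regions, above only 7.53% and 13.9% of theirs. In all, 7 of 11 regions varied more than the median of their similar regions, and 9 of 11 did without the weakly enriched libraries.

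**Figure D5:**
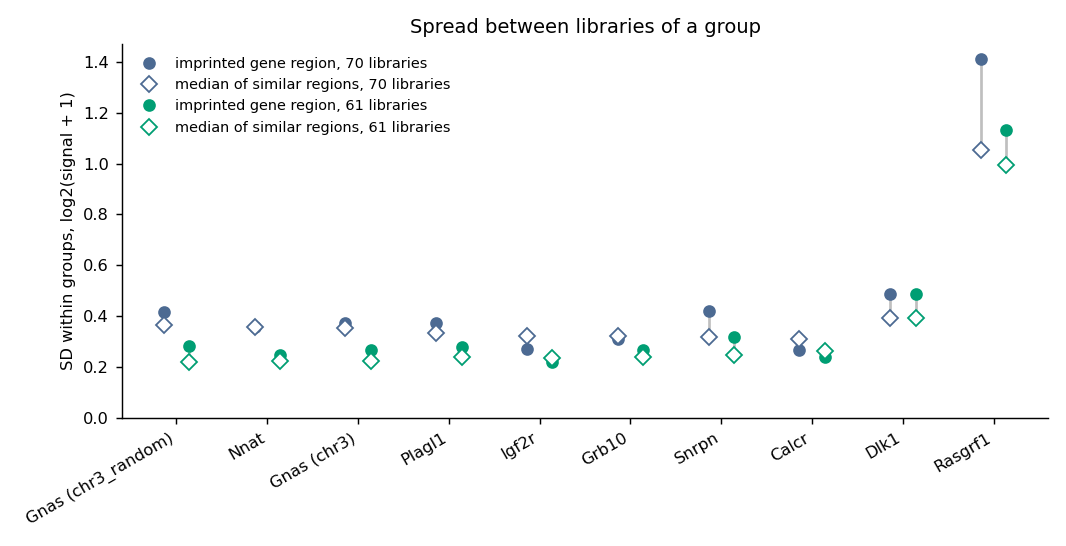
Pooled SD within groups of log2(signal + 1) for the 10 imprinted loci (circles) and the median of unlisted regions of similar mean (diamonds), with 70 libraries in blue and without the 9 weakly enriched ones (61 libraries) in green. Snrpn, Dlk1, Rasgrf1, Plagl1 and both Gnas regions lie above their diamonds in both colours, and Calcr and Igf2r below.

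Part of this spread was shared by the loci. After subtraction of group means, and without the weakly enriched libraries, all 21 pairs among the 7 loci of highest signal correlated positively. Pearson r ran from 0.27 to 0.81 over 31 libraries of partial hepatectomy and from 0.17 to 0.75 over 30 of terminal euthanasia. Among 45 pairs tested at each time, 14 and 12 of these 21 had a Benjamini-Hochberg adjusted permutation p under 0.05, and 0 of the other 24 pairs, which involve Calcr, Dlk1 or Rasgrf1, did. With all libraries all 21 did at each time, and 4 and 14 of the other 24. The cut between these 7 loci and Calcr followed no rule set beforehand, so the contrast of 21 with 24 pairs is a description only. Nnat and Gnas (chr3_random), for example, had r = 0.76 and rho = 0.75 at partial hepatectomy (permutation test, raw p = 7e-05, adjusted p = 0.00079 for each), and r = 0.67 without the 2 libraries farthest from the median. At terminal euthanasia they had r = 0.75 (permutation test, raw p = 7e-05, adjusted p = 0.0016) and rho = 0.74 (raw p = 0.00014, adjusted p = 0.0028), and r = 0.74 without 2 libraries. These points share library, enrichment and scaling, and the part of each was not tested. For comparison, the median r with unlisted regions of similar mean was taken over both times, without the weakly enriched libraries. It was 0.77 for Gnas (chr3_random), 0.60 for Nnat, 0.55 for Gnas (chr3) and 0.44 for Plagl1. For Snrpn it was 0.37, for Grb10 0.33 and for Igf2r 0.30.

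For each region the unlisted region with the most similar course over the 70 libraries was sought, on group-centred log2 signal, as a description of libraries that share enrichment and depth. Without the weakly enriched libraries the region most like Snrpn was Zrsr1, another imprinted gene, with r = 0.81 over 61 libraries against a median of 0.37 for regions of similar mean. With all libraries it was Igbp1b (r = 0.86, against 0.59). Over 70 libraries the most alike of the others were Zfp161 for Gnas (chr3_random) at r = 0.91, Mc5r for Nnat at 0.90 and Pabpc2 for Gnas (chr3) at 0.89. They were Sohlh2 for Plagl1 at 0.89, Pcdha9 for Grb10 at 0.78, Slc41a2 for Igf2r at 0.75, Olr475 for Calcr at 0.74, Mirlet7a-1 for Rasgrf1 at 0.70 and Twf1 for Dlk1 at 0.56. Pcdha9, Pabpc2 and Zfp161 also came first without the weakly enriched libraries, and the others gave way to other genes.

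Same-numbered libraries of a condition were compared between the times, as a question on whether a level stays with a number. Over 35 pairs, Pearson r of the deviations from group means was between -0.03 (Rasgrf1) and 0.27 (Nnat, raw p = 0.13), and the smallest Benjamini-Hochberg adjusted p of the 11 permutation tests was 0.95. Spearman rho of Nnat was 0.32 (permutation test, raw p = 0.090, adjusted p = 0.79). The median r over all 16385 tested regions was 0.10. Without the 2 pairs farthest from the median Nnat had r = 0.38 (permutation test, adjusted p = 0.40). No source used here says whether equal numbers mean the same rat, and same-numbered libraries of a condition also shared their block of library numbers.

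Other imprinted genes outside the H19 and Kcnq1 clusters give the wider setting. Of a list of 41 such genes 28 had a region, with mean signals from 7.70 (Pon2) to 356 (Zrsr1) and a median of 66.2, against 210 for the 11 regions described so far. In all 12 treatment contrasts and between the times 0 of them passed. At partial hepatectomy the 11 regions lay to a single side of 0 in the main fit only for phenobarbital and acetaminophen. Under quantile normalization 10 of 11 were above 0 for phenobarbital. The 28 regions did not lie to a single side in these contrasts, but they were not matched to the 11 on mean signal. At that time 15 were above 0 and 13 below for phenobarbital against water (median 0.01). With acetaminophen 17 were above and 11 below (median 0.02). The smallest adjusted p was 0.16, for Klf14, a transcription factor gene, at 0.47 (SE 0.13, limma) higher at terminal euthanasia. Gab1, a docking protein, was 0.23 higher (SE 0.09, limma adjusted p = 0.58). These were 2 of 28 at the unadjusted level, against 6.59% of all regions, and those named next were at that level in their contrasts. At terminal euthanasia they were 1 of 27 with each of thioacetamide, methapyrilene and acetaminophen, against 2.06%, 2.57% and 2.77% of all regions, 3 of 27 with DEN 3 mg/kg against 8.51%, and 1 of 27 for phenobarbital against 3.16%. There Asb4, of a ubiquitin ligase family, was higher than in promoted controls by 0.55 with thioacetamide, 0.44 with methapyrilene and 0.51 with acetaminophen (limma adjusted p = 1.00 in each), 3 values that share their controls. DEN 3 mg/kg had Ndn at 0.57, Nap1l5 at 0.55 and Cobl at 0.40 (limma adjusted p = 0.58 in each). Dio3, which inactivates thyroid hormone, was 1.08 higher with phenobarbital than with water (SE 0.48, limma adjusted p = 1.00). At partial hepatectomy Atp10a, a lipid-moving membrane pump, stood at -1.05 with methapyrilene (SE 0.52, limma adjusted p = 1.00), 1 of 28 against 3.67% of all regions.

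The 10 genes whose proteins place or guard methylation marks, among them Dnmt1, Uhrf1, Zfp57 and Trim28, had 11 regions with a median signal of 95.3, and 0 passed in any contrast. Signal around a start does not measure expression, so the label of the tissue was not checked against marker transcripts here. As levels, the regions of 7 hepatocyte marker genes had a median of 52.4. Those of endothelial markers had 163.9, biliary markers 117.6, stellate markers 95.2, macrophage markers 76.1 and lymphocyte markers 76.1.

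The authors also called peaks between the DEN 30 mg/kg and the promoted control livers, at 2 times named 5w and 11w in their list. It held no peak inside any of the 11 imprinted regions, whereas 1180 of 16876 distinct regions (6.99%) held at least 1. The authors' list assigns 6 peaks to the genes, all outside their start regions. Igf2r had 2 that were higher with DEN at 5w, at chr1:42276023-42276244 in an intron (28 reads in the higher set against 2 in the other) and at chr1:42338904-42339098 over exon and intron (16 against 2). Grb10 had 1 higher with DEN at 5w in its transcript's 3′ end, at chr14:92817207-92817449 (28 against 4), and 1 lower at 11w in an intron, at chr14:92903132-92903295 (30 in the phenobarbital set against 7). That intronic peak lay 8.23 kb from the start. Rasgrf1 had 1 higher at 11w at chr8:94901559-94901740 (20 against 4) and Calcr 1 lower at 5w at chr4:28514097-28514248 (17 in the phenobarbital set against 3). Each is the authors' own value for a single comparison of sets, with no replicate error.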

How the data were processed

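Values are the deposited signal of 17174 promoter regions in 70 libraries, 5 in each of 14 groups. In the deposited signal 100% of the values of a library were whole multiples of 1 step within 0.01 reads, so the authors' values were read as reads scaled by a total of the library. The value 0.01, which stands for no read, was set to 0. The p-values in the deposited tables come from a t-test against the promoted control, per the file headers. The read counts and the enrichment factor, a ratio, in the deposited peak list are the authors' own. No source used here names the aligner or the genome build. Each library is one liver as far as the labels tell.

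From the signal, limma 3.58.1 in R 4.3.3 was fitted to log2(signal + 1) with a mean-variance trend over the 7 groups of a time, or over all 14 groups for the difference between times. Regions with a signal of 10 or more in at least 5 libraries were tested, with Benjamini-Hochberg adjustment over all of them and a threshold of 0.05. In each contrast the imprinted regions with an unadjusted p under 0.05 are named, or else the one with the smallest p; further values of those regions, and all values of Dlk1 outside the difference between times, were chosen after they were seen. Regions of similar mean had a mean within 10%, with 20% as an alternative. Permutation tests drew 100000 pairings. Scripts were tested on simulated data. Other alternatives were a pseudocount of 10, no filter, a mean of 20 or more, quantile normalization and leaving out each library. Library number blocks were also fitted as a covariate, and so was a block for replicate number. For the difference between times the replicate block joined same-numbered libraries of a condition. Libraries with under 1% of regions without a read, or those of the last block of library numbers, were left out in turn, and the groups of a contrast were fitted alone. Quantile normalization without the weakly enriched libraries, further settings of the correlation between times and the treatment-by-time interactions were chosen after seeing the data. The correlations between pairs of imprinted loci, and their division by signal, were not set in advance. The genes and lists were chosen with earlier results of these data known.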

Additional observations from a re-analysis of the deposited data

Results flagged for a closer look

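In 18 of 154 sets of 5 libraries (11 regions in 14 groups, 11.7%), 1 library lay so far from the other 4 that its gap, divided by the whole range, exceeded 0.71, which chance alone gives for about 1 set in 20. Weakly enriched libraries made up 13 of the 18, and the 18 came from 8 libraries.

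Water control 5 at partial hepatectomy was the lowest of its group for Plagl1 (139 against 252 to 265, gap ratio 0.897), Nnat (182 against 333 to 377, 0.776), Igf2r (160 against 230 to 250, 0.773) and Snrpn (71.9 against 136 to 160, 0.722). It was the highest for both Rasgrf1 regions (41.5 and 40.5 against 7.0 or less, 0.831 and 0.827). Promoted control 5 at terminal euthanasia was lowest for Grb10 (117 against 204 to 213, 0.909) and highest for both Rasgrf1 regions (51.5 against 6.08 or less, 0.945 and 0.948). For the Rasgrf1 regions thioacetamide library 4 (34.6 and 33.6 against 6.31 or less, 0.818 and 0.812) and methapyrilene library 3 (23 and 22 against 5.57 or less, 0.758 and 0.747), both of terminal euthanasia, were also highest. All of these libraries are weakly enriched.

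The other 5 cases were high values in libraries that were not weakly enriched. Promoted control 1 at partial hepatectomy had 932 for Gnas (chr3_random) against 554 to 630 (0.799) and 398 for Plagl1 against 260 to 278 (0.869). Thioacetamide library 5 at partial hepatectomy had 229 for Snrpn against 191 to 196 (0.869). At terminal euthanasia DEN 30 mg/kg library 4 had 188 for Calcr against 126 to 141 (0.759), and acetaminophen library 1 had 75.0 for Dlk1 against 36 to 44 (0.795).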

How the results depend on the processing

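With limma, 0 imprinted regions passed with the deposited scaling, in 10 other settings and in the 70 fits that each left out 1 library, 7744 tests in all, with 0.19 as the smallest adjusted p (Dlk1 between times, without the weakly enriched libraries). The differences named by the rule on p kept their sign in these settings wherever they were tested. Those of Rasgrf1 at partial hepatectomy were tested in only 5 of the 10 other settings and in 30 of the fits that left out 1 library of that time. The interactions and the values of other imprinted genes were not followed through these settings. The number of all regions called between times was 11, 25 under quantile normalization and 23 without the weakly enriched libraries, and for DEN 30 mg/kg at partial hepatectomy it was 0, and 5 with a pseudocount of 10. The correlation of same-numbered libraries changed sign under quantile normalization for Snrpn (0.02 to -0.0654) and Dlk1 (0.12 to -0.0264), and for the Rasgrf1 regions (-0.03) with a pseudocount of 10 (0.0510 and 0.0450) and without 2 pairs (0.0720 and 0.0638). The cause was not tested. Without the last block of library numbers Nnat had r = 0.48 (permutation test, raw p = 0.0055, adjusted p = 0.060).

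With a replicate block 0 imprinted regions passed. Between the times that block joined same-numbered libraries of a condition as pairs, and Dlk1 kept 0.32 there (limma adjusted p = 0.22). Same-numbered libraries of a condition had an r over 0.1 in 11 of 35 pairs (range -0.38 to 0.68), and since not every pair did, the numbers were not taken as pairs in the main fit. Of the 35, 21 correlated best with their own number among the 5 of the condition. Same-numbered libraries also shared their block of library numbers at both times, so this count cannot tell a shared rat from a shared block. The planned count models on recovered reads were not run, and the values were analysed as scaled signal only. Reads limit Rasgrf1 most, with 7.54 per library on average.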
